A study of Mus musculus with 6 samples.

Results

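Aminoacyl-tRNA synthetases were examined in the spinal cord of mice with and without Dhtkd1. The set was fixed by name: 20 genes for cytosolic enzymes and 16 for mitochondrial enzymes, whose symbols end in 2, were taken as every non-control probe that carries their name in the scanner files. All 36 were on the array, with 73 probes among 41174, and all 36 had a probe among the 21439 genes tested. The only probe of Lars2 also lists ribosomal RNA, so its values may not be those of Lars2 messenger RNA. The study compared 3 wild-type and 3 dhtkd1 null samples (dhtkd1-/-), all spinal cord of male C57BL/6 mice aged 8 weeks, with 1 single-colour Agilent array per sample. How the null allele was made is not given in the sources used here, and nothing in the labels ties a wild-type to a null sample or says outright that each replicate is its own animal, so the p-values measure the spread between these samples. Dhtkd1 is the 2-oxoacid dehydrogenase component of a mitochondrial enzyme complex in lysine breakdown, and its human gene is tied to Charcot-Marie-Tooth disease, an inherited neuropathy.

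Each synthetase joins 1 amino acid to its tRNAs, the step at which the genetic code is read into protein. The cytosol and the mitochondrion mostly use separate enzymes, both encoded in the nucleus, although Gars and Kars each make both forms and Eprs joins glutamyl and prolyl activities in 1 protein. Several of the cytosolic enzymes are also known genes of inherited neuropathy, and in cells short of an amino acid the transcription factor Atf4 drives many of them.

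The probes that the results turn on are shown first, in lower case, 5′ to 3′, with positions on mouse build mm9. A probe whose positions in the file span a splice junction is given whole (60 bases), and any other probe by its first 30 bases. Of the 4 Dars probes, 3 are shown because the probes gave different answers within 1 gene, on the minus strand of chromosome 1. In order from the 5′ end these 3 lie at chr1:130310284-130311944, chr1:130308836-130308895 and chr1:130271590-130271649. The first crosses a junction. The most upstream probe lists 2 RefSeq transcripts of Dars. The next, called the variant probe here, lists only one of them, and the most downstream of the 4, which is not printed, lists only the other.
Dars, most upstream: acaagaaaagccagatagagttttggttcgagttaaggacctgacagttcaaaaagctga
Dars, variant: ggtatatgcacatgagcactggatcaaagg
Dars, next downstream: cagggaatacgcaaatgaattgcaaaataa

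The Ears2 probes are shown for the same reason. They lie on the minus strand at chr7:129182565-129182624 (upstream) and chr7:129181412-129181471 (downstream). The upstream probe lists the RefSeq transcript of Ears2, and the downstream probe lists an Ensembl transcript and no RefSeq transcript.
Ears2, upstream: gtacgggaacgaatccagaaggtgctttct
Ears2, downstream: tttcgatgaagggtgtctgttttcttccaa

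The only Lars2 probe lies at chr9:123371116-123371175 on the plus strand. It is shown because its accessions include those of 28S and 45S ribosomal RNA as well as that of Lars2.
Lars2: acgtcgctttttgatccttcgatgtcggct

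Eprs was read at 4 places on the plus strand of chromosome 1, and its probes are shown because the last 2 share 19 bases, given in capitals, and so measure adjoining stretches of the transcript. From the 5′ end they lie at chr1:187193501-187194772, chr1:187222287-187222346, chr1:187244117-187248199 and chr1:187244158-187248240.
Eprs, probe 1: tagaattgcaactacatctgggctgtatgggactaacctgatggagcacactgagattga
Eprs, probe 2: gctaggagatccttgccttaaagatctgaa
Eprs, probe 3: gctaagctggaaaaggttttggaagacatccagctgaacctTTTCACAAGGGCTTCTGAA
Eprs, probe 4: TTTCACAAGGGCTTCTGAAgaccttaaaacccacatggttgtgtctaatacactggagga

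Signals are log2 ratios of a probe's processed intensity to its array's 75th percentile (950 to 1055 intensity units across arrays), so that 0 marks that percentile. A difference is the null mean minus the wild-type mean on this scale. Between 78.4% and 82.0% of spots were well above background. As a check of the labels, Dhtkd1 itself read -2.46, -3.16 and -2.97 in wild-type replicates 1 to 3 and -4.33, -3.43 and -4.03 in null replicates 1 to 3. The groups did not overlap, with a difference of -1.07 (SE 0.29), an unadjusted limma p of 0.010 and an exact permutation p of 0.1. With 3 arrays on each side no exact test can go under 0.1. No gene of the 21439 passed an adjusted p of 0.05 (0%), Dhtkd1 included (adjusted p = 0.45 with limma and Benjamini-Hochberg adjustment). At an unadjusted p under 0.05, 5.92% of genes were higher in null and 3.01% were lower, which is the background for the counts below.

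No synthetase passed the test in either direction. None had an unadjusted limma p under 0.05, and the smallest adjusted p among the 36 was 0.66. The differences lay between -0.21 and 0.50 (log2), 26 of the 36 were under 0.1 in size, and 21 were smaller than their own standard error. With 18 positive and 18 negative differences, the median over all 36 was 0.00, against 0.02 over all genes tested. Without Lars2, whose probe also lists ribosomal RNA, the highest difference was 0.27, with 17 positive and 18 negative differences.

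A missed threshold does not by itself show equal levels, so the intervals of the differences were read. For 33 of the 36 synthetases the 95% interval lay inside 1.5-fold either way, as it did for 67.8% of all genes. All 20 cytosolic enzymes were among them, and the 3 exceptions were the mitochondrial Lars2, Wars2 and Mars2. The synthetases also differed little between arrays of 1 group. Their median within-group SD was 0.09 against 0.15 over all genes, and 31 of the 36 lay under that median. Their median difference in size, either way, was 0.08 against 0.11 over all genes. All 36 synthetases were well above background on all 6 arrays, whereas a gene was kept at 3 or more. These comparisons with all genes were not matched for signal.

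**Figure D1:**
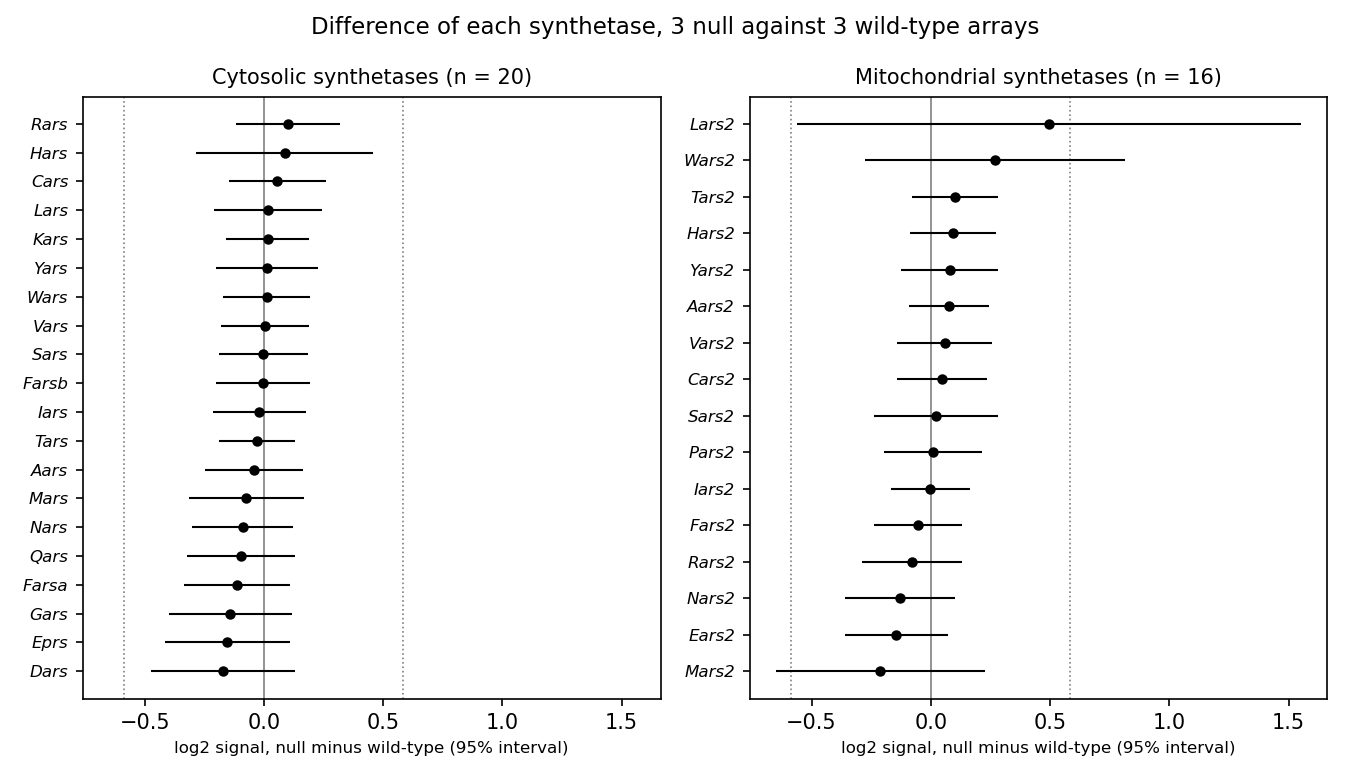
Difference of each synthetase between 3 null and 3 wild-type arrays, with cytosolic enzymes on the left and mitochondrial enzymes on the right. Points are log2 differences, bars are 95% intervals, and dotted lines mark 1.5-fold; every interval spans 0, and Lars2, Wars2 and Mars2 have the widest.

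Among the cytosolic enzymes, 8 of 20 had a positive difference and the median was -0.01. Rars, for arginine, had the highest difference at 0.10, followed by Hars, for histidine, at 0.09 and Cars, for cysteine, at 0.06. At the low end stood Dars, for aspartate, at -0.17, Eprs at -0.15, Gars, for glycine, at -0.14 and Farsa, a subunit of the phenylalanine enzyme, at -0.11. Farsb, the other subunit of that enzyme, had a difference of -0.00, and the standard errors were 0.09 and 0.08. The gap between the subunits was not tested. The enzymes for glutamine, asparagine, methionine and alanine, Qars, Nars, Mars and Aars, had differences of -0.10, -0.09, -0.07 and -0.04. Those for threonine and isoleucine, Tars and Iars, stood at -0.03 and -0.02. Sars, for serine, was at -0.00 and Vars, for valine, at 0.00. Wars, Yars, Kars and Lars, for tryptophan, tyrosine, lysine and leucine, were at 0.01, 0.01, 0.02 and 0.02.

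The neuropathy-linked enzymes were followed array by array, since the null model concerns a neuropathy gene. Of these 7, 4 had a positive difference, none reached an unadjusted p under 0.05, and the median was 0.01. Gars, the first of the family to be tied to Charcot-Marie-Tooth disease, read -0.23, -0.27 and 0.00 in wild-type and -0.19, -0.34 and -0.39 in null. Null replicates 2 and 3 lay below every wild-type array and null replicate 1 within the wild-type range, and the difference of -0.14 (SE 0.10) had a limma p of 0.22 and an exact permutation p of 0.3.

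Aars read 3.76, 3.74 and 3.67 in wild-type and 3.73, 3.76 and 3.55 in null. Null replicate 3 was the lowest array and the other null arrays lay close to the wild-type ones. The difference was -0.04 (SE 0.08, limma p = 0.63, exact permutation p = 0.7). Hars read 1.10, 1.20 and 1.18 in wild-type and 1.15, 1.57 and 1.03 in null. Null replicate 2 was the highest array and null replicate 3 the lowest, with a difference of 0.09 (SE 0.15, limma p = 0.58, exact permutation p = 0.9).

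Kars read 1.51, 1.59 and 1.48 in wild-type and 1.60, 1.55 and 1.48 in null. The groups covered nearly the same range, and the difference was 0.02 (SE 0.07, limma p = 0.82, exact permutation p = 0.8). Mars read -0.19, -0.15 and 0.08 in wild-type and -0.08, -0.19 and -0.22 in null, and its highest array was wild-type replicate 3. The difference was -0.07 (SE 0.10, limma p = 0.48, exact permutation p = 0.6).

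Wars, the cytosolic tryptophan enzyme, which interferon gamma is known to induce, read 2.63, 2.63 and 2.58 in wild-type and 2.62, 2.71 and 2.54 in null. Its arrays lay close together, with a difference of 0.01 (SE 0.07, limma p = 0.88, exact permutation p = 1.0). Yars read 2.20, 2.13 and 2.31 in wild-type and 2.29, 2.28 and 2.11 in null, which overlapped throughout. The difference was 0.01 (SE 0.09, limma p = 0.89, exact permutation p = 1.0).

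The cytosolic enzymes were also grouped by assembly and control. Of the 8 enzymes held in the multi-synthetase complex (Dars, Eprs, Iars, Kars, Lars, Mars, Qars and Rars), 3 had a positive difference, none had an unadjusted p under 0.05, and the median was -0.05. Of the 12 under the amino acid response (Aars, Cars, Eprs, Gars, Iars, Lars, Mars, Nars, Sars, Tars, Wars and Yars), 4 had a positive difference, none had an unadjusted p under 0.05, and the median was -0.02. Split by catalytic fold, the 18 class I enzymes had a median of 0.01 and the 17 class II enzymes a median of -0.00. Eprs holds both folds and was left out of that split.

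Among the mitochondrial enzymes, 10 of 16 had a positive difference and the median was 0.03, or 9 of 15 and 0.02 without Lars2. Tars2 at 0.10, Hars2 at 0.09, Yars2 at 0.08, Aars2 at 0.08, Vars2 at 0.06, Cars2 at 0.04, Sars2 at 0.02 and Pars2, for proline, at 0.01 made up most of the positive side. Iars2 stood at -0.00, Fars2 at -0.05, Rars2 at -0.08, Nars2 at -0.13 and Ears2, for glutamate, at -0.14. The mitochondrial median was above the cytosolic one, and this gap was not tested. The list means had an SD between arrays of 0.05 (cytosolic) and 0.07 (mitochondrial, or 0.04 without Lars2), which is not the error of that gap. The sign of the mitochondrial median was not stable: it was -0.02 with median centring of the arrays and -0.03 with slide as a fixed block or on slide 1 alone, which holds wild-type replicate 2 and all null samples. The cytosolic median was 0.02 without null replicate 3.

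Aars2 was the only synthetase whose groups did not overlap, against 14.8% of all genes. It read 0.836, 0.809 and 0.712 in wild-type and 0.859, 0.893 and 0.838 in null. The lowest null array was thus 0.838 against 0.836 for the highest wild-type array. The difference was 0.08 (SE 0.07), with a limma p of 0.30 and an exact permutation p of 0.1.

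The largest differences were those of Lars2, Wars2 and Mars2, and each was near 0 without 1 of the arrays. Wars2 read -1.13, -1.31 and -1.26 in wild-type and -1.20, -0.46 and -1.23 in null. Null replicate 2 was high and the other null arrays lay among the wild-type ones, with a difference of 0.27 (SE 0.22, limma p = 0.27, exact permutation p = 0.4). Without that array it was 0.02. Mars2, the mitochondrial methionine enzyme, read -4.51, -3.93 and -4.42 in wild-type and -4.32, -4.58 and -4.61 in null. Wild-type replicate 2 was high. The difference was -0.21 (SE 0.18, limma p = 0.28, exact permutation p = 0.5), and it was -0.03 without wild-type replicate 2. On slide 1, where that replicate is the only wild-type sample, and with slide as a fixed block it was -0.57, with unadjusted limma p-values of 0.026 and 0.014.

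Lars2 read 7.28, 7.50 and 5.89 in wild-type and 7.26, 7.54 and 7.36 in null. Wild-type replicate 3 stood at -1.5 relative to the mean of the other arrays, which lay close together. The difference was 0.50 (SE 0.43, limma p = 0.29, exact permutation p = 0.5), and it was -0.00 without wild-type replicate 3. The ribosomal RNA that the probe also lists was measured by 3 other probes. That of Rn28s1, the 28S RNA, read 1.55, 1.55 and 0.77 in wild-type and 1.48, 1.92 and 1.58 in null, so it too was lowest in wild-type replicate 3, at -0.85 relative to the mean of the others. One of the Rn45s probes, for the precursor RNA, was also lowest there (1.14, against 1.44 to 1.74 on the other arrays). At the other, wild-type replicate 2 was lowest (2.61, against 2.70 in wild-type replicate 3). By intensity the Lars2 probe ranked 42, 33 and 222 in wild-type and 45, 19 and 40 in null among 43379 non-control spots. How far the Lars2 probe read Lars2 messenger RNA was not tested.

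**Figure D2:**
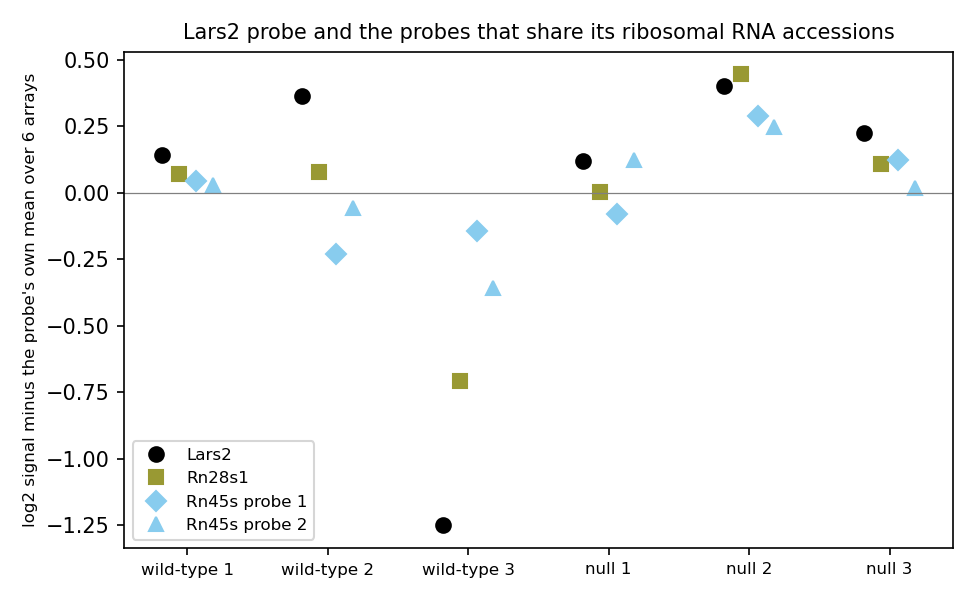
Signal of the Lars2 probe and of 3 probes of ribosomal RNA accessions that it also lists, on each of the 6 arrays. Each point is log2 signal minus that probe's own mean over the 6 arrays; Lars2 and Rn28s1 were both lowest in wild-type replicate 3, while one of the Rn45s probes was lowest in wild-type replicate 2.

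The arrays differed from each other in the level of the whole set more than the genotypes did. For each gene the signal was set against its own mean over 6 arrays, and these values were averaged over the set. The cytosolic mean was -0.01, 0.02 and 0.04 in wild-type and 0.04, 0.01 and -0.10 in null, so null replicate 3 was the low array and the groups overlapped. In that array 1 of the 20 cytosolic enzymes stood above its own mean, and 13 of 20 (65%) had their lowest reading there, as did 14.7% of all genes. The mitochondrial mean was -0.00, 0.06 and -0.12 in wild-type and 0.04, 0.06 and -0.03 in null. Without Lars2 the wild-type values were -0.01, 0.04 and -0.05 and the null values 0.03, 0.03 and -0.05, which again overlapped.

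**Figure D3:**
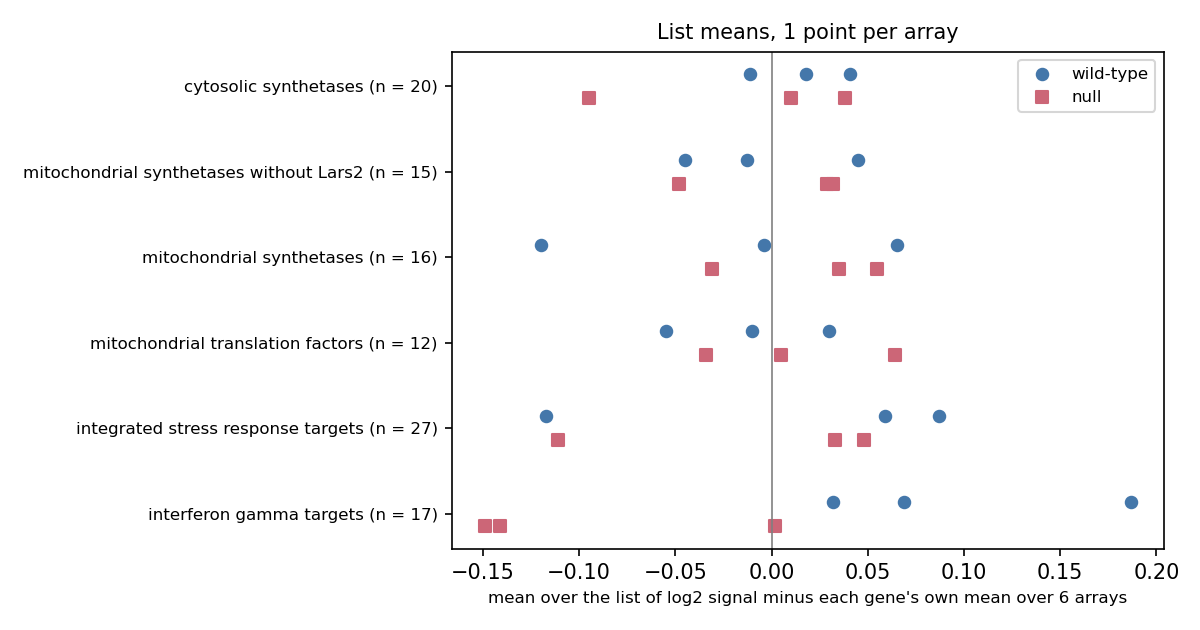
Mean over each list of log2 signal minus each gene's own mean over 6 arrays, with 1 point per array (circles, wild-type; squares, null). The cytosolic, mitochondrial and translation factor lists overlapped between genotypes, with null replicate 3 lowest for the cytosolic enzymes at -0.10, and the interferon gamma targets did not overlap. The mean over all genes tested, not drawn, did not overlap either and was higher in null.

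Genes of related steps were read in the same fit. Of 12 mitochondrial translation factors, 1 was higher at an unadjusted p under 0.05 and none was lower, with a median of 0.01. This was Mrrf, the ribosome recycling factor, at 1.76, 1.92 and 1.99 in wild-type and 2.02, 2.18 and 2.15 in null, without overlap. The difference was 0.23 (SE 0.09, limma p = 0.046, exact permutation p = 0.1).

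Targets of the integrated stress response, the Atf4 programme that includes many cytosolic synthetases, had 13 positive differences among 27 and a median of -0.02. At an unadjusted p under 0.05, where 5.92% of all genes were higher and 3.01% lower, none of the 27 was lower and 4 were higher. They were Mthfd2, a mitochondrial folate enzyme, at 0.32 (SE 0.10), Chac1, which degrades glutathione, at 0.24 (SE 0.08), Pck2, the mitochondrial phosphoenolpyruvate carboxykinase, at 0.21 (SE 0.08) and Ddit4, an mTORC1 inhibitor, at 0.39 (SE 0.15). Their limma p-values ran from 0.018 to 0.046 and their adjusted p-values from 0.50 to 0.55. The groups of each did not overlap (exact permutation p = 0.1). Of the 27 targets 5 had groups that did not overlap, 4 higher and 1 lower, against 14.8% of all genes. Differences over the 27 ran from -0.69 to 0.39. None of the 12 synthetases under the same response was among the genes at an unadjusted p under 0.05. Of 17 interferon gamma targets, 3 were lower and none higher, against 3.01% and 5.92% of all genes, and the median was -0.17. Their list mean was 0.03, 0.07 and 0.19 in wild-type and -0.15, -0.14 and 0.00 in null, without overlap. The mean over all genes tested did not overlap either, at -0.056 to 0.004 in wild-type and 0.008 to 0.028 in null. The 3 were the GTPases Igtp at -0.38 (SE 0.09), Gbp6 at -0.52 (SE 0.12) and Gbp3 at -0.37 (SE 0.10), with limma p-values of 0.0048 to 0.0084 and adjusted p-values of 0.40 to 0.44. The groups of each did not overlap (exact permutation p = 0.1). Of the 17 targets 5 had groups that did not overlap, all lower in null, against 14.8% of all genes. Wars, which interferon gamma also induces, had a difference of 0.01.

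Several lists of cell type markers had a far wider range between arrays than the synthetases did. Mean levels of 7 adipocyte markers ranged from -1.59 to 1.10 in wild-type and from -0.71 to 2.06 in null, of 6 skeletal muscle markers from -1.71 to 0.99 and from 0.22 to 0.57, and of 6 Schwann cell markers from -0.41 to 1.55 and from -1.11 to 0.03. Those of 6 meningeal fibroblast markers ranged from -0.42 to 1.30 and from -1.43 to 0.43, those of 8 leukocyte markers from -0.78 to 0.00 and from -0.46 to 1.07, and those of 4 red blood cell markers from -0.81 to 0.38 and from 0.06 to 0.44. The corresponding range for all 36 synthetases was -0.03 to 0.04 in wild-type and -0.07 to 0.04 in null. Means over fewer genes vary more by themselves, so these ranges are not like for like. The median within-group SD per gene ran from 0.54 (red blood cell) to 1.67 (adipocyte) in these marker lists, against 0.09 for the synthetases.

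Lists of the resident cells of the cord varied less. All 7 neuron, 6 motor neuron, 8 oligodendrocyte, 6 astrocyte, 7 microglia and 6 endothelial markers were well above background on at least 3 arrays. Mean levels ranged from -0.09 to 0.01 in wild-type and from -0.02 to 0.07 in null for neuron markers, from -0.40 to 0.66 and from -0.26 to 0.10 for motor neuron markers, and from -0.14 to 0.11 and from -0.13 to 0.09 for astrocyte markers. A positive difference was found for 4 of the 7 neuron markers, 3 of the 6 astrocyte markers and 0 of the 6 motor neuron markers. The only astrocyte marker whose groups did not overlap was lower in null. Of the oligodendrocyte markers 7 of 8 had a negative difference, and the list mean ranged from -0.17 to 0.35 in wild-type and from -0.22 to 0.08 in null. Of the microglia markers 6 of 7 had a positive difference, and the list mean ranged from -0.43 to 0.06 and from 0.03 to 0.18. Of the endothelial markers 4 of 6 had a positive difference, and the list mean ranged from -0.29 to 0.03 and from -0.18 to 0.31.

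No marker passed an adjusted p of 0.05, and those at an unadjusted p under 0.05 were as follows. Of 7 microglia markers 3 were higher in null, the complement genes C1qb at 0.58 (SE 0.21) and C1qa at 0.60 (SE 0.22) and the calcium-binding Aif1 at 0.34 (SE 0.13). Of 6 endothelial markers 2 were higher, Ly6c1 at 0.85 (SE 0.15) and the VEGF receptor Flt1 at 0.30 (SE 0.10). The leukocyte phosphatase Ptprc was higher by 0.53 (SE 0.13) and the haem synthesis enzyme Alas2 of red blood cells by 0.73 (SE 0.24). The astrocyte connexin Gjb6 was higher by 0.28 (SE 0.11), although 3 of the 6 astrocyte markers had a negative difference. Sox10, a transcription factor on both the oligodendrocyte and the Schwann cell list, was lower at -0.46 (SE 0.12). Of the 6 Schwann cell markers 5 had a negative difference, and the list median was -0.66. Cdh19 was the only member of that list with a positive difference, at 0.28 (SE 0.09). Pmp2, a fatty acid binding protein of peripheral myelin, is not read with these. It was not well above background on any null array. It was kept only through its wild-type arrays, which spread widely (-2.91, -5.58 and -4.52), so no test or fold of it is given. Adjusted p-values of the other genes ran from 0.34 to 0.54, and their groups did not overlap (exact permutation p = 0.1) except at Gjb6 (exact permutation p = 0.2).

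The remaining lists had no marker at an unadjusted p under 0.05. Their 2 markers of smallest p were Syt1 at 0.37 (SE 0.16) and Rbfox3 at 0.20 (SE 0.10) for neurons, Mnx1 at -0.36 (SE 0.25) and Slc5a7 at -0.20 (SE 0.30) for motor neurons, and Lum at -1.41 (SE 0.74) and Col1a1 at -1.23 (SE 0.71) for meningeal fibroblasts. They were Ckm at 0.89 (SE 0.70) and Myh4 at 0.80 (SE 0.66) for skeletal muscle and Ucp1 at 1.78 (SE 1.17) and Retn at 0.71 (SE 0.70) for adipocytes. The part of cell mixture in the synthetase values was not tested, and in a whole tissue fewer cells of a type and less RNA per cell cannot be told apart.

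The synthetase probes were also read one by one. Of the 73 probes, 71 were well above background on at least 3 arrays and were fitted one by one with all 33191 such probes. Of the 71, 3 were higher in null at an unadjusted p under 0.05 and 1 was lower, against 5.51% and 2.68% of all probes. None of the 33191 passed an adjusted p of 0.05. The synthetase probes, at 3 and 1 of 71, were thus called no more often than probes in general. Dars and Ears2 are described by probe because their probes gave unlike values, and they were singled out after these values were seen.

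The lower one was the Dars variant probe. It read -4.12, -4.10 and -4.39 in wild-type and -5.34, -4.83 and -5.31 in null. Every null array was below every wild-type array, with a difference of -0.96 (SE 0.17, 1.95-fold lower), a limma p of 0.0013, an adjusted p of 0.35 and an exact permutation p of 0.1. The other Dars probes did not share this. The most upstream probe, which lists both transcripts, read -1.20, -1.13 and -1.43 in wild-type and -1.05, -0.98 and -1.10 in null. Here the null arrays were the higher ones and did not overlap with wild-type (difference 0.21, SE 0.10, limma p = 0.092, exact permutation p = 0.1). The next downstream probe had a difference of -0.01 (SE 0.09). The most downstream probe, which stands for the gene in the fit over genes, read 0.31, 0.51 and 0.62 in wild-type and 0.49, 0.19 and 0.24 in null, with overlapping groups and a difference of -0.17 (SE 0.12).

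Each probe was then set against the mean of the other kept probes of its gene, array by array, over all 19493 probes of genes with at least 2 kept probes. This removes whatever moves a whole gene. An unadjusted p under 0.05 was met by 5.26% of these probes and an adjusted p under 0.05 by 8 of them. Among 56 synthetase probes, 6 met the first, from 3 genes, and none met the second. In a gene with only 2 kept probes, both give the same test with opposite sign. Ears2 and Yars2 are such genes, and each is counted with both probes. The Dars variant probe was -0.97 relative to the other Dars probes (SE 0.19), with a limma p of 0.0021 and an adjusted p of 0.63. The most upstream Dars probe was 0.59 (SE 0.09), with a limma p of 6.4e-04 and an adjusted p of 0.39. The groups did not overlap at either (exact permutation p = 0.1). The variant probe enters the mean that the upstream probe is set against, so these values are not independent. With each array left out in turn the variant probe stood between -1.17 and -0.84, all at an unadjusted limma p under 0.05. With slide as a fixed block it stood at -1.03. That value compares the null arrays with wild-type replicate 2 alone, because slide 2 holds no null sample, so it cannot separate slide from genotype for the other wild-type arrays. The probe is dim, and with normexp background correction, which offsets all signals by 50 intensity units, the value was -0.50 (SE 0.12).

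Ears2 showed the other case. Its downstream probe read -3.12, -2.81 and -3.08 in wild-type and -2.42, -2.41 and -2.47 in null. Every null array was above every wild-type array, with a difference of 0.57 (SE 0.10, 1.48-fold higher), a limma p of 0.0016, an adjusted p of 0.36 and an exact permutation p of 0.1. The upstream probe, which stands for the gene, read -2.19, -2.03 and -2.10 in wild-type and -2.37, -2.22 and -2.16 in null. It leaned the other way with overlapping groups, at -0.14 (SE 0.09, limma p = 0.16 when fitted among probes, exact permutation p = 0.2). The downstream probe minus the upstream probe was -0.93, -0.78 and -0.98 in wild-type and -0.05, -0.19 and -0.31 in null. These ratios did not overlap, and they differed by 0.71 (SE 0.10, limma p = 3.6e-04, adjusted p = 0.29, exact permutation p = 0.1). With each array left out in turn the value was between 0.65 and 0.78, all at an unadjusted limma p under 0.05. With slide as a fixed block it was 0.60, which again rests on wild-type replicate 2 as the only wild-type array.

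**Figure D4:**
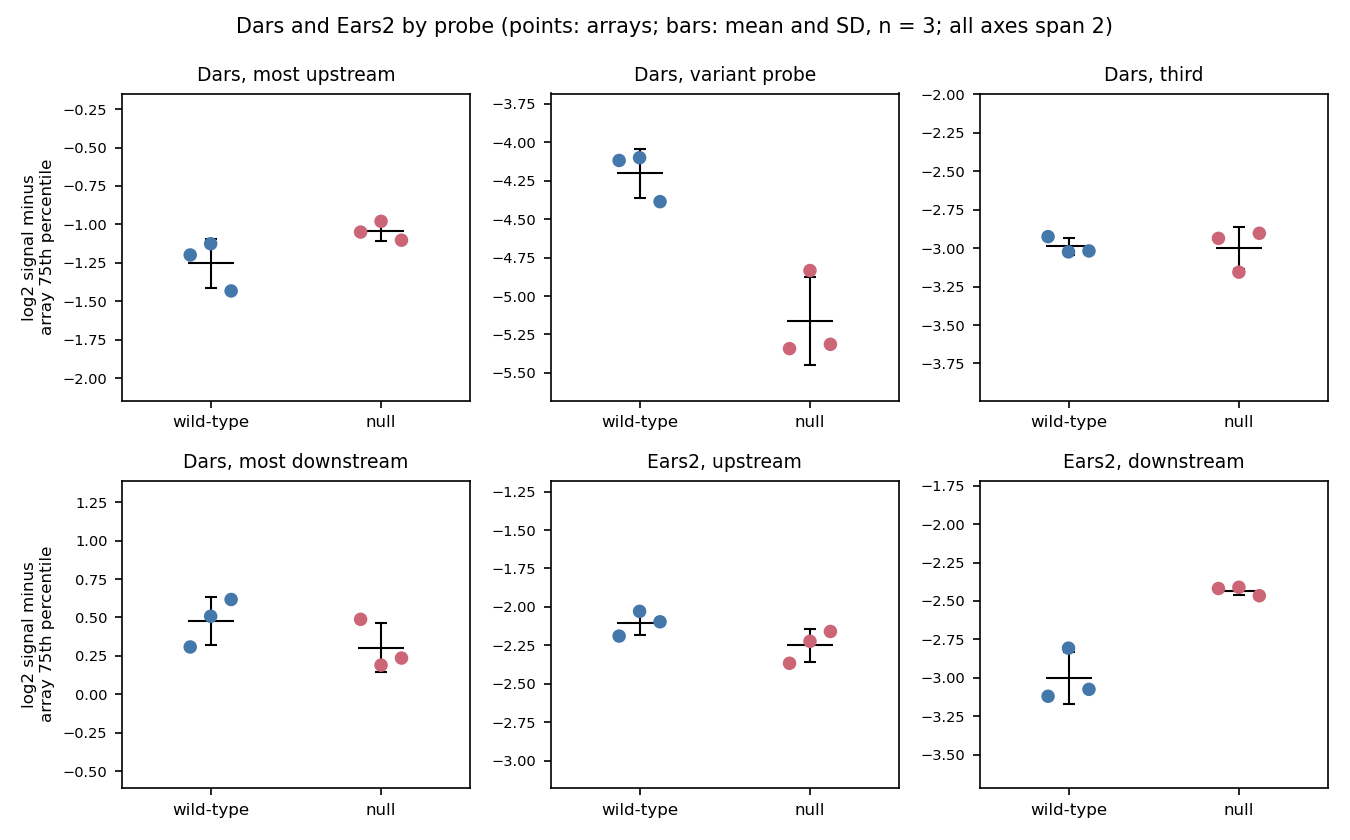
Log2 signal of the 4 Dars probes and the 2 Ears2 probes relative to the 75th percentile of each array, in wild-type and null samples. Points are arrays and bars are the mean and SD of 3; the Dars variant probe was lower in every null array and the Ears2 downstream probe higher in every null array, while the probe that stands for each gene overlapped between groups.

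The other probes at an unadjusted p under 0.05 had smaller differences. The downstream probe of Yars2 read -4.20, -4.27 and -4.38 in wild-type and -4.00, -4.05 and -3.97 in null, with no overlap and a difference of 0.28 (SE 0.08, limma p = 0.014, adjusted p = 0.54, exact permutation p = 0.1). The upstream Yars2 probe had a difference of 0.08 (SE 0.09). The downstream probe set against it gave 0.20 (SE 0.08, limma p = 0.041, exact permutation p = 0.1). That value was 0.10 with quantile normalization and 0.15 without wild-type replicate 2, with unadjusted limma p-values of 0.26 and 0.11. A probe of Wars2 at chr3:99022383-99022442 read -5.10, -4.97 and -5.13 in wild-type and -4.86, -4.86 and -4.79 in null (difference 0.23, SE 0.08, limma p = 0.024, adjusted p = 0.58, exact permutation p = 0.1). Set against the other Wars2 probes it gave 0.06 (SE 0.21), and null replicate 2 was the high array at those.

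Probes nearer the 5′ end and nearer the 3′ end of a gene did not keep the same ratio on every array. For each gene with at least 2 kept probes, the most 5′ signal minus the most 3′ signal was set against the gene's mean over arrays. Over 3894 genes whose probes lay more than 5000 bases apart, the median was -0.15 in wild-type replicate 3 and between 0.005 and 0.061 on the other arrays. Of the 10 synthetases with probes that far apart, 6 had their lowest ratio in wild-type replicate 3, against 46.7% of those genes. The value there was -0.91 for Wars, -0.57 for Eprs, -0.51 for Dars, -0.41 for Aars, -0.21 for Lars and -0.08 for Cars2. At any probe distance, 7 of 21 synthetases (33.3%) had their lowest ratio in that replicate, against 41.7% of 7596 genes. Qars, Vars, Ears2, Tars2 and Vars2 instead had their highest ratio there, Qars at 0.91 with probes 4942 bases apart. RNA integrity numbers were not used here, and the part of RNA quality or labelling in these ratios was not tested.

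Eprs shows the pattern in its sequences. The overlapping probes 3 and 4 read 0.45 and 1.45 in wild-type replicate 3, their highest array, and had differences of -0.13 (SE 0.11) and -0.15 (SE 0.11). Probes 1 and 2 read -0.87 and 0.08 in that replicate, their lowest array, and had differences of 0.16 (SE 0.15) and 0.09 (SE 0.10). In this gene the overlapping probes thus differed in the same direction, though not alike in level, and probes 1 and 2 differed in the other. Each difference was close in size to its standard error, and that of probe 4 was -0.08 without wild-type replicate 3. None of the 4 reached an unadjusted p under 0.05, and the groups overlapped at each. The 2 Cars probes that share 30 bases had differences of 0.06 (SE 0.09) and 0.16 (SE 0.13). In Wars the 5′ probe read -2.03 in wild-type replicate 3 and -0.72 to -0.98 on the other arrays, while the 3′ probe, which stands for the gene, stayed between 2.54 and 2.71 on all 6.

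**Figure D5:**
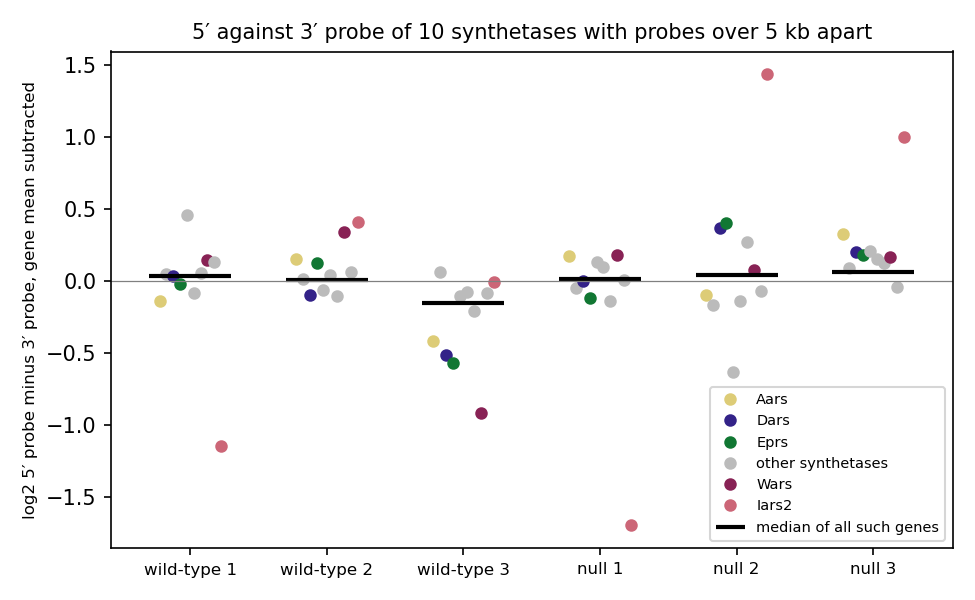
Log2 signal of the most 5′ probe minus the most 3′ probe of the 10 synthetases with kept probes over 5000 bases apart, with each gene's mean over 6 arrays subtracted. Points are genes and black bars are the median of all 3894 such genes; wild-type replicate 3 had the lowest median at -0.15, with Wars, Eprs, Dars, Aars and Lars below it, and Iars2, whose 5′ probe was well above background on 3 arrays, varied most.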

How the data were processed

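The deposited scanner files hold spot intensity made with Agilent Feature Extraction 10.7.3.1 (build mm9, per the file headers), background-subtracted within each array and not normalized between arrays. The deposited value table, in log2 units with a method not stated, had a median of 7.22 in every column and followed each array's log2 intensity at r of 0.9997 or more across probes; it was used as an alternative only, and its centring method stays unknown.

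Signals were log2 of processed intensity minus the array's 75th percentile, without outlier spots (58 to 89 per array), averaged per probe. Probes well above background on at least 3 of 6 arrays were kept, and the kept probe of highest mean stood for a gene. The null minus wild-type difference was fitted over all genes with limma 3.58.1 (R 4.3.3, lmFit and eBayes, 2-sided, no covariate) with Benjamini-Hochberg adjustment; 95% intervals use its moderated error. The fit was tested on simulated data. Python 3.11.15 with scipy 1.17.1 gave the exact 2-sided permutation tests. Names came from probe accessions (27668 probes), current symbols (5589), synonyms (471) or the file (7446), with assembly GRCm38.p6 for names only. The number of arrays limits the precision.

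Slide 1 held wild-type replicate 2 and all null samples, and slide 2 the other wild-type samples. Synthetases and lists were chosen with earlier results of these data known. Every synthetase is named. Given in full were those at an unadjusted p under 0.05, the neuropathy-linked ones and those with non-overlapping groups. From each other list the genes at that p were named, at most 4, or else the 2 of smallest p. A list of accessory genes and 1 probe sequence are not reported here. Alternatives covered normalization, filters, probe choice, slide, replicate block and each array left out; probe-against-probe fits were added after seeing the data.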

Additional observations from a re-analysis of the deposited data

How the results depend on the processing

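No synthetase passed an adjusted p of 0.05 under any of the 20 alternatives. Over all genes, the count past that threshold was 4 with a trended and robust variance prior and 1 each with median centring, normexp, quantile normalization, the authors' value table and the filter on all 6 arrays; it ranged from 0 to 2 when single arrays were left out. At an unadjusted p under 0.05, fitting every kept probe gave 3 higher and 1 lower synthetase probes, and 1 synthetase was lower with the mean of kept probes (Dars at -0.23), with slide as a fixed block and on slide 1 alone (Mars2 in both). The cytosolic median ranged from -0.06 (median centring) to 0.02 (without null replicate 3), and the mitochondrial median from -0.03 (slide 1 alone or slide as a fixed block) to 0.07 (mean of kept probes), so the sign of neither was kept. Without Lars2, chosen after seeing the data, the mitochondrial median was 0.02.

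Replicate numbers did not pair the samples (r of -0.02, -0.11 and 0.33 between same-numbered deviations). With the replicate block the medians were -0.01 and 0.03, 0 synthetases reached an unadjusted p under 0.05 and 0 genes an adjusted one. The block left the Dars variant probe at -0.97 and the Ears2 downstream probe at 0.71 relative to their gene's other probes. Each replicate number holds a wild-type and a null sample, so this block can change the error of a difference but not its size. These kept their direction and an unadjusted p under 0.05 under the 13 alternatives tried; the Yars2 probe lost it in 9 of 13. The fixed slide block among them compares the null arrays with wild-type replicate 2 alone. Median centring cannot change a ratio taken within an array. The fits with single arrays left out reuse the arrays in which these probes were picked. The 13 alternatives are thus not independent support. The Dars variant probe was at -0.50 with normexp. It and Mars2 averaged -4.20 and -4.29 in wild-type, far under the 75th percentile of signal, which limits both.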

Other observations

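Of the 73 synthetase probes, 2 were not kept. The probe nearest the 5′ end of Aars was well above background on 1 array, and a Wars2 probe at chr3:99041598-99041657 on none. The 5′ probe of Iars2 was well above background on 3 arrays and read between -8.10 and -4.27, a wider range than any other kept synthetase probe.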
